A study of Mus musculus with 8 samples.

Results

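Ion pumps and water channels were examined in mouse trophectoderm, the outer epithelium of the blastocyst, as a set of 7 genes chosen by name. The set holds the beta subunits Atp1b1 and Atp1b3 of the sodium pump, the aquaporins Aqp3, Aqp8, Aqp9 and Aqp11, and the sodium/proton exchanger Slc9a3. Of these, 6 had a probe set annotated with that symbol alone, out of 14860 genes so annotated on the array. Slc9a3 was not analysed here. Each of the 6 genes had 1 such probe set.

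The tissue came from embryonic day 4.5 blastocysts of C57BL/6J dams mated to C57BL/6J males. The dams had eaten a high fat diet (Teklad 06414) or a control diet (Lab Diet 5015) from weaning to 16 weeks of age, when they were mated. Trophectoderm was cut from the pole opposite the inner cell mass, and 5 blastocysts were pooled for each array. There were 4 arrays of the high fat diet and 4 of the control diet. The labels do not tie pools to dams, and p-values cover only the variation among these pools.

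The blastocoel, the fluid cavity of the blastocyst, forms when trophectoderm moves sodium into the embryo and water follows. The sodium pump, Na,K-ATPase, sits in the basolateral membrane and drives this gradient. Its catalytic alpha subunit needs a beta subunit to fold and reach the membrane. Sodium enters at the apical side through routes that include sodium/proton exchangers, and aquaporins let water pass along the gradient. Tight junctions between the cells keep the fluid in.

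Values are log2 signals, so a difference of 1 equals a factor of 2. Background on an array was set from 842 probe sets of olfactory, vomeronasal, taste and trace amine receptors, families known from sensory neurons, at their 95th percentile. It lay between 6.15 and 6.65 on the high fat diet arrays and between 5.88 and 6.13 on the control diet arrays. Levels of different genes come from different probes and are not set against each other.

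The arrays differed in ways that touch every result. The array medians averaged 5.83 ± 0.09 with the high fat diet and 5.65 ± 0.05 with the control diet (SD, n = 4 each), with p = 0.0286 in an exact two-sided permutation test, which cannot give less. Over 16015 tested probe sets the median log2 difference was 0.22. Of the 5112 probe sets with an unadjusted limma p under 0.05, 94.4% read higher. The same share was 44.7% of 1517 with cyclic loess, 67.3% of 2066 with median centring and 84% of 2562 with quantile normalization. High fat diet replicate 3 had the fewest probe sets above background, 4723, against 5313 to 6635 on the other arrays. Of 9 measured trophectoderm markers, 6 lay above background on all 8 arrays, among them Krt18, Cdx2 and Gata3. Of 9 inner cell mass markers, 5 did so too, among them Pou5f1 and Fgf4. In pooled tissue, fewer cells of a type and less RNA per cell cannot be told apart.

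Of the 6 measured genes, 4 were detected on every array. Atp1b1, Atp1b3, Aqp3 and Aqp9 lay above background on 8 of 8 arrays, also against the 99th percentile of the receptors. Aqp8 and Aqp11 lay below it on 8 of 8 arrays. Of all tested probe sets, 24.2% lay above background on every array and 49.6% on none. None of the 6 genes passed the limma threshold between diets (0 of 6 at an adjusted p under 0.05, with 0.00624% of all probe sets called). At an unadjusted limma p under 0.05 the count was also 0 of 6, against 30.1% of all probe sets in the higher and 1.79% in the lower direction. The median log2 difference of the 6 genes was 0.13, against 0.22 over all tested probe sets.

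**Figure D1:**
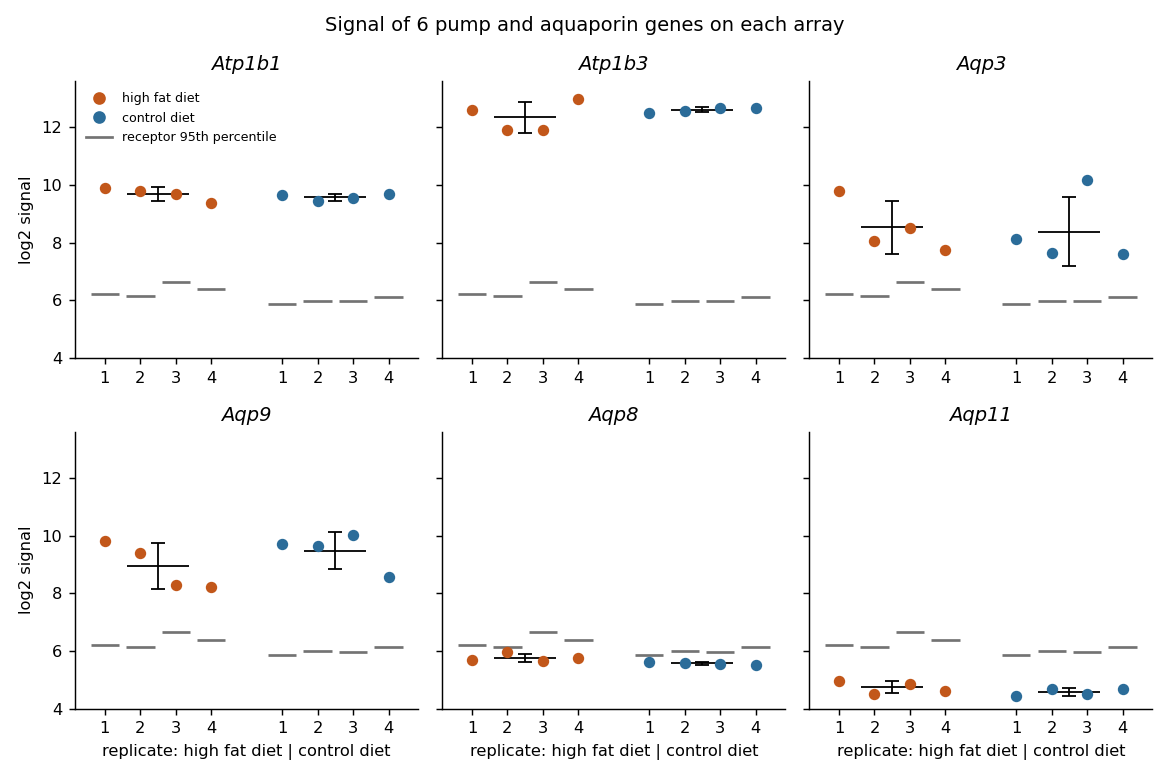
Log2 signal (vertical axis) of 6 pump and aquaporin genes on each array, with high fat diet replicates on the left and control diet replicates on the right of each panel. Black bars are group means with SD (n = 4 each), and short grey lines are the receptors' 95th percentile on that array. Atp1b1, Atp1b3, Aqp3 and Aqp9 lie above the grey lines on 8 of 8 arrays, and Aqp8 and Aqp11 lie below them.

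Atp1b1 encodes the beta1 subunit, which pairs with the catalytic subunit and carries it to the basolateral membrane. It read 9.90, 9.80, 9.70 and 9.37 in the high fat diet pools, against 9.64, 9.43, 9.54 and 9.67 in the control diet pools. The groups overlapped, and the lowest of all 8 values was high fat diet replicate 4. The means were 9.69 ± 0.23 with the high fat diet and 9.57 ± 0.11 with the control diet (SD, n = 4 each). The log2 difference was 0.12 with an SE of 0.13 (limma adjusted p = 0.505), and its 95% interval ran from -0.18 to 0.42. Of the 4 detected members this was the tightest interval, equal to a ratio between 0.883 and 1.34. Relative to the median of all probe sets the difference was -0.10, and median centring turned its sign (-0.06).

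Atp1b3 encodes the beta3 subunit, another glycoprotein partner of the same catalytic subunits. It read 12.60, 11.90, 11.91 and 12.99 in the high fat diet pools, against 12.49, 12.57, 12.67 and 12.68 in the control diet pools. Control diet pools lay within 0.19 of each other, while high fat diet pools held both the highest and the lowest values of the 8 arrays. The means were 12.35 ± 0.54 with the high fat diet and 12.60 ± 0.09 with the control diet (SD, n = 4 each). The log2 difference was -0.25 with an SE of 0.25 (limma adjusted p = 0.476), with a 95% interval from -0.84 to 0.33. Without high fat diet replicate 2 or 3 it was -0.10 or -0.11, and without replicate 4 it was -0.47.

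The spread of Atp1b3 in the high fat diet pools exceeded that of 85.3% of tested probe sets in the same arrays. In the control diet pools it exceeded that of 22.1%. In all, 5 of the 6 genes had a larger SD with the high fat diet than with the control diet, as did 66.9% of all tested probe sets. Whether the 2 SDs of Atp1b3 differ was not tested.

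Both beta subunits are transcribed from starts in GC-rich sequence, shown here because they are the detected pump genes. The letters are the 150 bases before the first listed RefSeq start in GRCm38.p6, 5′ to 3′ on the gene's strand. Capitals mark the letters TATANA on the gene's strand and the GC box GGGCGG on either strand. The Atp1b1 window is chr1:164458356-164458505 on the minus strand. The Atp1b3 window is chr9:96364432-96364581 on the minus strand, at the first of 2 listed starts.
Atp1b1: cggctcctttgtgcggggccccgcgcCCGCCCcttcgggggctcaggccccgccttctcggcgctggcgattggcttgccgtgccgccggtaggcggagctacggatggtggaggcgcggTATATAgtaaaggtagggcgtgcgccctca
Atp1b3: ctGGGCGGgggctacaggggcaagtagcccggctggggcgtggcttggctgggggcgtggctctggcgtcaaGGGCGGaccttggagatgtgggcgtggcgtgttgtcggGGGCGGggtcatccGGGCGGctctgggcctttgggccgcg

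The Atp1b1 window held 1 TATANA match, 30 to 25 bases before the start, and 1 GC box. The Atp1b3 window held 4 GC boxes and no TATANA match. The same length before its second listed start, not shown, held no match to either motif. Over 32851 windows of the same length before RefSeq starts, 9.7% held TATANA and 28.6% held GGGCGG. The windows held 19 CpG pairs for Atp1b1 and 14 for Atp1b3, with a median of 4 over all windows. A match describes the letters and is not a measured binding site.

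Aqp3 encodes an aquaglyceroporin, a channel for water and glycerol known from the basolateral membrane of many epithelia. It read 9.80, 8.05, 8.50 and 7.76 in the high fat diet pools, against 8.13, 7.64, 10.16 and 7.61 in the control diet pools. A single pool of each diet stood high, high fat diet replicate 1 and control diet replicate 3, and the groups overlapped over nearly their whole range. The means were 8.53 ± 0.90 with the high fat diet and 8.39 ± 1.21 with the control diet (SD, n = 4 each). The log2 difference was 0.14 with an SE of 0.67 (limma adjusted p = 0.888). Its 95% interval, from -1.42 to 1.71, equals a ratio between 0.373 and 3.26, so changes within that range are not excluded at this number of arrays.

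The spread of Aqp3 within a diet exceeded that of 91.5% of tested probe sets in the high fat diet arrays and 94.3% in the control diet arrays. Its difference was 0.73 without control diet replicate 3 and -0.28 without high fat diet replicate 1. The sign of the Aqp3 difference thus rested on single pools, and it also turned with median centring (-0.04).

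Aqp9 encodes an aquaglyceroporin that also passes other small uncharged solutes and is best known from liver. It read 9.82, 9.41, 8.30 and 8.23 in the high fat diet pools, against 9.71, 9.63, 10.02 and 8.55 in the control diet pools. In all, 3 pools lay between 8.23 and 8.55, namely high fat diet replicates 3 and 4 and control diet replicate 4, and the other 5 lay between 9.41 and 10.02. The means were 8.94 ± 0.80 with the high fat diet and 9.48 ± 0.64 with the control diet (SD, n = 4 each). The log2 difference was -0.54 with an SE of 0.46 (limma adjusted p = 0.414), with a 95% interval from -1.60 to 0.53. Without high fat diet replicate 3, the array with the fewest probe sets above background, the difference was -0.32. Without high fat diet replicate 4 it was -0.30, and without control diet replicate 4 it was -0.84.

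**Figure D2:**
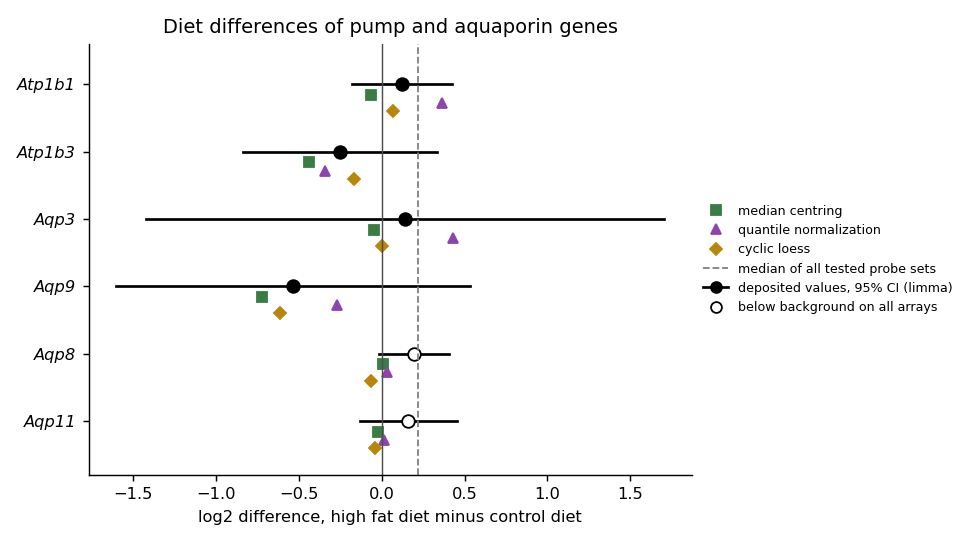
Log2 difference, high fat diet minus control diet (horizontal axis), of 6 genes with its 95% interval from limma (n = 4 each), and the same difference after 3 other scalings. All 6 intervals include 0, and the dashed line is the median of all tested probe sets, 0.22. Open circles mark Aqp8 and Aqp11, which lay below background on all arrays.

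The starts of these aquaporins are shown for their contrast in base composition, with windows and capitals as for the pump genes. The Aqp3 window is chr4:41098184-41098333 on the minus strand. The Aqp9 window is chr9:71163290-71163439 on the minus strand, at the first of 2 listed starts.
Aqp3: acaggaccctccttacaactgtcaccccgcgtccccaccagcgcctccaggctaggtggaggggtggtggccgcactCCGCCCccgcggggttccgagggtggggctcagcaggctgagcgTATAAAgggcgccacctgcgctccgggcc
Aqp9: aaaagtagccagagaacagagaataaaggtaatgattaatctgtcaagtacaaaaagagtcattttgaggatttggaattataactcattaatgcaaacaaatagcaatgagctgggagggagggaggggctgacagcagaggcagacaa

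The Aqp3 window held 1 TATANA match, 29 to 24 bases before the start, 1 GC box and 12 CpG pairs. The Aqp9 window held 0 CpG pairs and no match to either motif, with a GC share of 39.3% against 71.3% in Aqp3. Neither these 2 windows nor those of the beta subunits held the AP-2 letters GCCNNNGGC or the TEAD letters GGAATG on either strand. Over all windows 9.6% held the first and 7.6% the second. AP-2 and TEAD proteins are families of transcription factors that include regulators of trophectoderm formation.

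Aqp8, a water channel known from epithelia of the digestive tract, gave no usable level. It read 5.71, 5.96, 5.64 and 5.75 in the high fat diet pools, against 5.63, 5.58, 5.56 and 5.50 in the control diet pools. All high fat diet values lay above all control diet values, as they did on 25.4% of all tested probe sets. The log2 difference of 0.20 (SE 0.09, limma adjusted p = 0.175) was measured below background, was -0.02 relative to the median of all probe sets, and turned to -0.06 with cyclic loess. No rise is read from it.

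Aqp11, an aquaporin of unusual sequence that lies inside the cell, read 4.98, 4.52, 4.86 and 4.63 in the high fat diet pools. In the control diet pools it read 4.43, 4.69, 4.51 and 4.70. The groups overlapped, and every value lay at least 1.24 below the background of its array. The log2 difference of 0.16 (SE 0.13, limma adjusted p = 0.377) turned sign with median centring (-0.03) and cyclic loess (-0.04).

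Between pools, the detected members correlated with each other with both signs. After subtraction of each diet's mean, Aqp3 and Aqp9 had a Pearson correlation of 0.64 over 8 arrays, Atp1b1 and Aqp9 of 0.43, and Atp1b1 and Aqp3 of 0.36. Atp1b3 ran at -0.48 with Atp1b1, 0.07 with Aqp3 and -0.13 with Aqp9. These values are descriptions over 8 arrays that share their scaling.

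Cell type markers moved with some of these differences between pools. On the mean of its 9 measured members, each centred over the 8 arrays, the inner cell mass list ran from -0.04 to 0.25 over high fat diet pools and from -0.80 to 0.89 over control diet pools. Control diet replicate 2 gave the 0.89, and Tdgf1 read 10.33 there against 4.55 to 5.45 on the other arrays. The control diet pool with the highest Aqp3, replicate 3, had the lowest inner cell mass mean. Without subtraction of the diet means, the list's Pearson correlation over 8 arrays was -0.65 with Aqp3 and -0.29 with Aqp9. It was -0.24 with Atp1b1 and -0.02 with Atp1b3. The list median of the log2 difference was 0.35, or 0.11 with cyclic loess. Klf2 (0.64), Fgf4 (0.75) and the undetected Esrrb (0.35) read higher with groups apart but did not pass the adjusted threshold. Groups lay apart in this direction on 25.4% of all probe sets. Of the 9 genes, 2 had differences below 0, Nanog (-0.45) and Tdgf1 (-0.95), as did 21.3% of all probe sets. Tdgf1 lay above background on 1 control diet array only. Pou5f1 and the undetected Sox2 differed by 0.07 each, or -0.02 and -0.12 with cyclic loess. The trophectoderm list of 9 measured genes ran from -0.48 to 0.19 over high fat diet pools and from -0.10 to 0.11 over control diet pools. Its correlation by the same measure was 0.68 with Aqp9, 0.64 with Atp1b1, 0.52 with Aqp3 and -0.55 with Atp1b3. After subtraction of the diet means it was 0.68, 0.75, 0.54 and -0.65 in the same order. The median difference of the trophectoderm list was 0.08, or -0.14 with cyclic loess. The part of cell makeup in these values was not tested.

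The primitive endoderm list of 10 measured genes ran from 0.01 to 0.30 over high fat diet pools and from -0.20 to -0.01 over control diet pools. Gata4, Gata6, Dab2, Foxa2 and Col4a1 lay above background on 8 of 8 arrays, and Sox7 and Pdgfra on none. Against the receptors' 99th percentile, Gata6 and Dab2 lay above on 4 of 4 arrays of each diet. By the same measure Col4a1 did so on 3 of 4 high fat diet and 2 of 4 control diet arrays. Gata4 and Foxa2 did so on 0 of 4 high fat diet arrays, and on 1 and 2 of 4 control diet arrays. The uterine list of 10 ran from 0.06 to 0.38 over high fat diet pools and from -0.29 to -0.10 over control diet pools. The uterine markers Msx1, Wnt7a, Col1a1 and Hoxa10 lay above background on 8 of 8 arrays, with log2 differences of 0.54, 0.36, 0.55 and 0.46. Their groups lay apart in the higher direction for Msx1, Col1a1 and Hoxa10 and overlapped for Wnt7a. Against the receptors' 99th percentile, Col1a1 lay above on 4 of 4 arrays of each diet and Msx1 on 1 of 4 of each. Wnt7a and Hoxa10 did so on no array. Esr1 lay above background on 3 of 4 high fat diet and 1 of 4 control diet arrays, with a difference of 0.43 and groups apart. Ltf, Muc1, Calb1, Pgr and Vim lay above it on no array. Of 4 measured blood genes, Cx3cr1 lay above background on 8 of 8 arrays, with groups apart and a difference of 0.27, or -0.02 with cyclic loess. Alas2 lay above it on 1 of 4 high fat diet arrays and 0 of 4 control diet arrays, and Ptprc and Cd74 on none. At an unadjusted limma p under 0.05, 4 of 10 primitive endoderm, 8 of 10 uterine and 3 of 4 blood genes read higher. The share over all probe sets was 30.1%, and 0 of the list genes passed the adjusted threshold. The blood genes counted were Cx3cr1 and the undetected Ptprc and Cd74. With cyclic loess the counts of the lists were 2 of 10, 2 of 10 and 0 of 4, against 678 of 16015 probe sets. The medians of these 3 lists were 0.24, 0.35 and 0.31 in the order given, against 0.22 over all tested probe sets. With cyclic loess they were -0.04, 0.09 and 0.07. Without subtraction of diet means, the lists correlated with the 4 detected genes between -0.62 (Aqp9, blood) and 0.42 (Atp1b1, primitive endoderm). The part of these lists in the results was not tested.

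For each detected member, the 3 genes most like it were found among 5787 other genes above background on at least 4 arrays, by the Pearson correlation of deviations from the diet means over 8 arrays. For Aqp9 they were Anxa4 (0.99), Pramel7 (0.97) and Slc44a1 (0.95). Anxa4, an annexin, read 11.73, 9.99, 6.85 and 6.06 in the high fat diet pools, against 9.72, 9.23, 10.37 and 5.50 in the control diet pools. The 3 pools that were low in Aqp9 were also the 3 lowest in Anxa4, and 2 of them lay below background for Anxa4.

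For Aqp3 the most like genes were Pex19 (0.98), Stard7 (0.97) and Kmt5a (0.95). Kmt5a, a histone methyltransferase, read 9.34, 7.81, 7.98 and 7.66 in the high fat diet pools, against 9.55, 8.44, 11.43 and 9.39 in the control diet pools. Its high pools within each diet were those of Aqp3. For Atp1b1 they were Nop53 (0.97), Fam221a (0.97) and Ahcyl2 (0.94), and for Atp1b3 they were Wac (0.96), Cpsf6 (0.96) and Eif4e (0.95). Eif4e, the cap-binding translation factor, read 6.78, 4.86, 4.92 and 8.21 in the high fat diet pools, against 6.96, 6.62, 6.34 and 7.39 in the control diet pools. Eif4e and Wac lay below background in high fat diet replicates 2 and 3, and Cpsf6 did so in every high fat diet pool. Picking the best of 5787 genes over 8 arrays gives high values by selection alone.

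**Figure D3:**
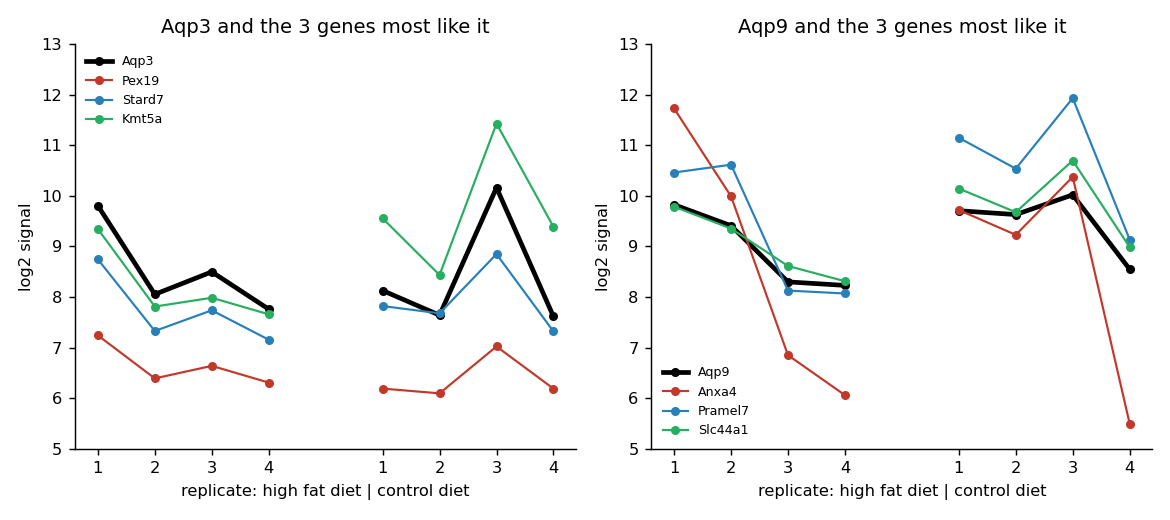
Log2 signal (vertical axis) of Aqp3 (left panel) and Aqp9 (right panel), each with the 3 genes whose deviations from the diet means correlate best with it, on 4 high fat diet and 4 control diet arrays. Lines only join the points of a gene, since replicates have no order. Aqp9 and Anxa4 are both low in high fat diet replicates 3 and 4 and in control diet replicate 4.

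Partners of the sodium pump did not pass either. The 4 catalytic alpha subunits were not analysed here. Of 9 measured genes among other beta subunits and the FXYD subunits, small membrane proteins that tune the pump, 0 passed the limma threshold. At an unadjusted p under 0.05, 4 of 9 read higher and 0 lower, against 30.1% and 1.79% of all probe sets, and the median difference was 0.24, or -0.01 with cyclic loess. Atp1b2, the beta2 subunit known from glia, read 6.78, 6.63, 7.31 and 7.10 in the high fat diet pools, against 6.39, 6.46, 6.39 and 6.55 in the control diet pools. It lay above background on 8 of 8 arrays but above the receptors' 99th percentile on none. Its groups did not overlap, and the log2 difference was 0.51 (SE 0.15, limma adjusted p = 0.117), or 0.22 with cyclic loess. Atp1b4 and Fxyd2 differed by 0.48 and 0.47, or 0.23 and 0.21 with cyclic loess, but lay above background on no array. Of the 9, 2 had differences below 0, as did 21.3% of all probe sets. The larger was that of Fxyd6, -0.82 (SE 0.35, limma adjusted p = 0.157), or -1.09 with cyclic loess. Fxyd6 lay above background on 3 of 4 high fat diet and 4 of 4 control diet arrays, and its groups overlapped.

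The other 8 aquaporins all had differences above 0, and 0 of 8 passed the threshold. At an unadjusted limma p under 0.05, 6 of 8 read higher, against 30.1% of all probe sets, and 2 of 8 did so with cyclic loess. Their median was 0.35, against 0.22 over all probe sets, and it was 0.08 with cyclic loess. Of the 8, 5 lay above background on no array, so most of these differences were measured in the dim range. Aqp2, the vasopressin-regulated channel of the kidney, read 7.05, 7.10, 7.45 and 7.13 in the high fat diet pools, against 6.75, 6.54, 6.63 and 6.85 in the control diet pools. It lay above background on 8 of 8 arrays and did not overlap between diets. Against the receptors' 99th percentile it lay above on 3 of 4 high fat diet and 2 of 4 control diet arrays. Its log2 difference was 0.49 (SE 0.12, limma adjusted p = 0.115), and 0.21 with cyclic loess. Aqp12 differed by 0.36 and Mip, the lens aquaporin, by 0.51, with Mip above background on no array, and cyclic loess gave 0.07 and 0.26.

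Sodium/proton exchange was represented by 10 measured genes, with Slc9a3 not among them. None passed the threshold (0 of 10), 2 of 10 read higher at an unadjusted p under 0.05, against 30.1% of all probe sets, and the median was 0.19, or -0.05 with cyclic loess. The exchanger Slc9a8 lay above background on 3 of 4 high fat diet and 4 of 4 control diet arrays, with a difference of 0.20, or -0.09 with cyclic loess. The exchangers Slc9a4, Slc9a7, Slc9a9 and Slc9b2 lay above background on no array. Ezr, or ezrin, which links membrane proteins to the apical cytoskeleton, read 6.90, 7.11, 7.32 and 7.83 in the high fat diet pools, against 6.69, 6.71, 6.55 and 7.10 in the control diet pools. Its groups overlapped, and the log2 difference was 0.53 (SE 0.21, limma adjusted p = 0.146), or 0.26 with cyclic loess. Slc9a3r2, a scaffold that binds Slc9a3, differed by 0.27 and Slc9a9 by 0.17, and both turned to -0.02 with cyclic loess. Of the 10, 3 had differences below 0, as did 21.3% of all probe sets. The largest was that of Pdzk1, -0.83 (SE 0.54, limma adjusted p = 0.292), or -1.06 with cyclic loess. Pdzk1 lay above background on 4 of 4 arrays of each diet, and its groups overlapped.

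Other routes of sodium and chloride were mostly dim. Of 12 measured genes, 9 lay above background on no array, 0 passed the threshold, and 4 read higher at an unadjusted p under 0.05, against 30.1% of all probe sets. The median was 0.22, and -0.02 with cyclic loess. Scnn1a, a subunit of the epithelial sodium channel, differed by 0.48, or 0.19 with cyclic loess, and lay above background on 1 of 4 high fat diet arrays and 0 of 4 control diet arrays. Slc5a1, a sodium-glucose transporter, and Slc26a6, an anion exchanger, differed by 0.33 and 0.31 below background, or 0.09 and 0.08 with cyclic loess.

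Regulators of pumps and channels gave 0 of 10 calls, 2 of 10 higher at an unadjusted p under 0.05 against 30.1% of all probe sets, and a median of 0.19, or -0.05 with cyclic loess. Mapk12, a p38 kinase, read 6.79, 6.76, 7.32 and 6.77 in the high fat diet pools, against 6.37, 6.41, 6.35 and 6.55 in the control diet pools. The groups did not overlap, and the log2 difference was 0.49 (SE 0.14, limma adjusted p = 0.115), or 0.20 with cyclic loess. Mapk13 and Mapk11 of the same kinase family differed by 0.28 each. With cyclic loess the sign of Mapk13 turned and Mapk11 gave 0.04. Of the 10, 3 had differences below 0, as did 21.3% of all probe sets. The largest was that of Sgk3, -0.95 (SE 0.82, limma adjusted p = 0.415), or -1.24 with cyclic loess. Sgk3 lay above background on 2 of 4 high fat diet and 3 of 4 control diet arrays, and its groups overlapped.

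Junction proteins that seal the cavity mostly had differences below 0 in the deposited values. Of 9 measured genes, 6 had differences below 0, as did 21.3% of all probe sets, and the median was -0.15. With cyclic loess, 5 of 9 had differences below 0 and 4 above, with a median of -0.0009 over all probe sets. The list median was -0.34 after median centring and -0.17 after cyclic loess. None passed the threshold (0 of 9), and 1 of 9, Tjp1, read lower at an unadjusted p under 0.05, against 1.79% of all probe sets. Tjp1, the scaffold of tight junctions, read 7.65, 7.73, 7.84 and 7.18 in the high fat diet pools, against 9.35, 8.86, 9.43 and 9.09 in the control diet pools. The groups lay apart in the lower direction, as on 0.855% of all probe sets, with a log2 difference of -1.58 (SE 0.18, limma adjusted p = 0.115).

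Cldn4, a claudin, read 10.04, 13.21, 10.83 and 9.30 in the high fat diet pools, against 12.68, 12.25, 12.69 and 12.18 in the control diet pools. In the high fat diet, 3 pools lay below every control diet pool and replicate 2 lay above them all. The log2 difference was -1.60 with an SE of 0.77 (limma adjusted p = 0.184). Prkci, a polarity kinase, differed by -0.45. These junction genes were chosen with an earlier result on Tjp1 in these data known.

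**Figure D4:**
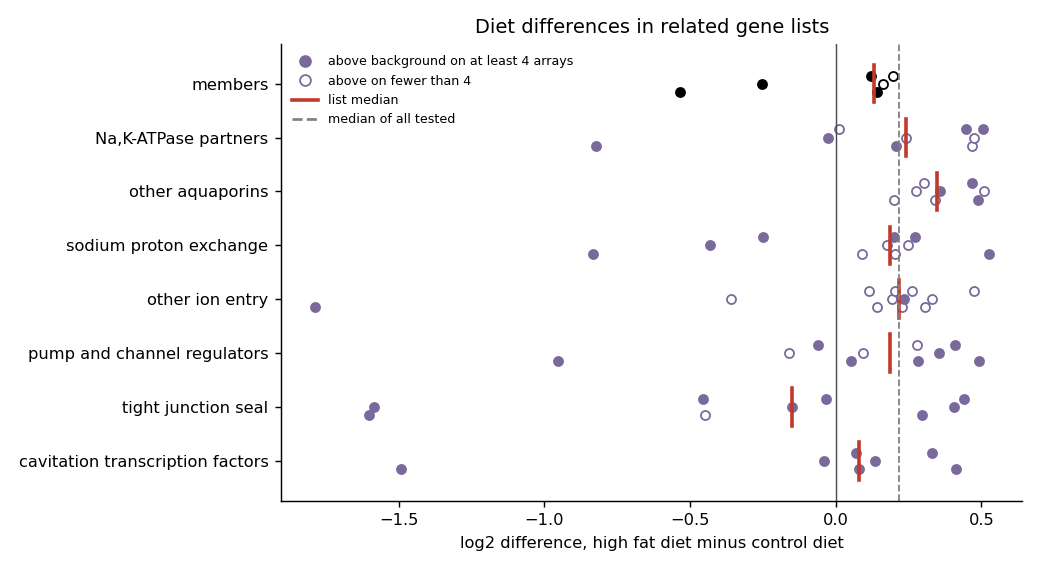
Log2 difference, high fat diet minus control diet (horizontal axis), of each measured gene in 7 related lists and of the 6 measured pump and aquaporin genes (members). Filled points lay above background on at least 4 arrays, red lines are list medians, and the dashed line is the median of all tested probe sets, 0.22. The medians run from -0.15 for the tight junction seal to 0.35 for the other aquaporins.

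Transcription factors known from trophectoderm formation gave 0 of 7 calls, 1 of 7 lower at an unadjusted p under 0.05 (Gata3) against 1.79% of all probe sets, and a median of 0.08, or -0.14 with cyclic loess. Gata3 read 10.70, 10.40, 9.53 and 7.97 in the high fat diet pools, against 11.23, 11.11, 11.42 and 10.81 in the control diet pools. The groups lay apart in the lower direction, as on 0.855% of all probe sets, and the log2 difference was -1.49 (SE 0.56, limma adjusted p = 0.132). Klf5 differed by 0.41 and Tead4 by 0.33, with overlapping groups for both, and Tead4 gave 0.14 with cyclic loess.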

How the data were processed

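Expression was measured in 8 pools of mouse trophectoderm on 1-colour Affymetrix arrays. The authors deposited log2 signals per probe set, made with RMA and Partek per the submitters' processing notes, which give no versions. Per the labels' protocols, cDNA was amplified in succession with 2 kits, which can widen the spread between pools for dim transcripts. No source used here gives the RMA settings or the genome build. The table held 23332 probe sets, with 0 columns of other samples.

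The platform annotation paired 14996 probe sets with 1 symbol and 1019 with several. RefSeq gene IDs gave current symbols for 14941 of the 14996. Where a gene had several probe sets the one with the highest mean was kept. The diet difference was fitted by limma 3.58.1 (R 4.3.3) with lmFit and moderated by eBayes, without a filter on dim probe sets. Its two-sided p-values were adjusted by Benjamini-Hochberg over the 16015 probe sets that have at least 1 symbol, at a threshold of 0.05. The fit was tested on simulated independent values without an array shift. The planted differences were larger than those of the members, so this test does not cover differences of their size. Probe sets with several symbols named no gene. Arrays correlated at r between 0.821 and 0.921, so none duplicated another. Their number limits the precision.

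The members and lists were chosen with earlier results of these data known. The text names each member, up to 3 genes per list with the smallest limma p, the 3 genes most like each detected member, and marker genes above background on every array or on none. Slc9a8, Esr1, Alas2, Nanog, Tdgf1, Fxyd6, Pdzk1, Car4, Sgk3 and Aqp5 were added after their values were seen. The exchangers Slc9a4, Slc9a7 and Slc9b2, above background on no array, were also named outside this rule. Replicate numbers did not pair the arrays, with correlations of deviations between -0.02 and 0.08 for equal numbers. Promoter sequences are RefSeq's, 150 bases before each start, in GRCm38.p6, and all 7 genes matched. Alternatives changed the probe sets tested, scaling, variance model, replicate block and background percentile, raised dim values to background, and left out each array in turn. Scalings of the lists were added after the data were seen.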

Additional observations from a re-analysis of the deposited data

Results flagged for a closer look

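Within the groups of 4 pools, 5 of 82 groups checked (41 genes in each diet) held a value far from the other 3. The share is near the 1 in 20 that chance gives, but all 5 were high fat diet groups. Most genes checked were picked for a small limma p, so they are not a random sample. No flagged group belonged to 1 of the 6 measured pump and aquaporin genes. Mapk12 read 7.32 in high fat diet replicate 3, against 6.76 to 6.79 in the other 3 pools. Mapk11 read 5.86 in the same pool, against 5.34 to 5.40, below background throughout. Col1a1, a uterine stroma marker, read 8.23 in the same pool, against 7.68 to 7.73. This array also had the fewest probe sets above background, and what sets these values apart was not tested. Klf5 read 10.31 in high fat diet replicate 1, against 10.93 to 11.03. Gata4, a primitive endoderm factor, read 6.77 in high fat diet replicate 4, against 6.91 to 6.94.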

How the results depend on the processing

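None of the 6 measured genes passed the limma threshold in any alternative that refitted all genes, 16 for the 4 detected genes and 15 for Aqp8 and Aqp11, which the filter on dim probe sets removed. The adjusted p across settings lay at 0.21 to 0.87 for Atp1b1, 0.20 to 0.80 for Atp1b3, 0.34 to 1.00 for Aqp3, 0.12 to 0.98 for Aqp8, 0.21 to 0.74 for Aqp9 and 0.20 to 0.96 for Aqp11. At an unadjusted p under 0.05 the count was 1 with array weights and 1 without high fat diet replicate 3 or 4, and 0 elsewhere. The differences of Atp1b3 and Aqp9 kept their sign in every setting, from -0.47 to -0.10 and from -0.84 to -0.27. Median centring reversed Atp1b1 (-0.0636), Aqp3 (-0.0443) and Aqp11 (-0.0255), and cyclic loess reversed Aqp8 (-0.0632) and Aqp11 (-0.0415), where the shift of all probe sets is removed by construction. Leaving out 1 array put Aqp3 between -0.28 and 0.73, and the median of the 6 genes from -0.12 to 0.20. Over all probe sets, 1 was called lower and 0 higher. The lower count was 3 over all probe sets of the table and 0 with cyclic loess or with the replicate number as a block. It was 0 to 2 with each array left out in turn, and the higher count was 1 with quantile normalization. The cause was not tested. The block left the differences of the members as they were, with an adjusted p of 0.26 for Aqp8 and 0.31 for Aqp9. With 1 array left out, the difference of the array medians lay between 0.14 and 0.21 and lost significance without control diet replicate 1 (0.17, exact permutation p = 0.0571). Raising dim values to background left the 4 detected genes unchanged and gave no value for Aqp8 and Aqp11, which lay wholly below it. No gene had a second probe set to try. Signal over background limits Aqp8 and Aqp11, and 4 pools a diet limit Aqp3 and Aqp9.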
